A study of Mus musculus with 19 samples.

Results

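The diet by conditioning interaction asks of each gene whether the liver answered remote limb ischemic conditioning (RIC) differently on a steatohepatitis diet than on normal chow. It was computed gene by gene as the RIC minus sham difference on the diet minus the RIC minus sham difference on chow, over all 19 samples. Of 55335 entries in the expression table, 52110 carried a gene name, and 10577 of these, whose mean over the samples reached 1 FPKM, were tested. FPKM counts fragments per kilobase of a gene per unit of sequencing depth. The interaction was called in 711 genes, of which 380 had a positive and 331 a negative value. A positive value means that the RIC difference was higher on the diet than on chow, and a negative value that it was lower.

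Bulk liver RNA of wild-type mice (Mus musculus; genotype WT in the labels) was sequenced. The 4 groups were normal chow (NC) with a sham procedure (n = 5), NC with RIC (n = 5), CDAHFD with a sham procedure (n = 5) and CDAHFD with RIC (n = 4), and no other agent or allele is named for any of them. CDAHFD is a choline-deficient diet, high in fat and with defined amino acids, on which mice develop a fatty, inflamed and scarring liver without the obesity seen with most fatty liver in people. Strain, sex, age, feeding state, the number of RIC sessions and the time from the last one to harvest are not stated. Nor do the labels say that each sample is its own animal, so the p-values speak only of the spread among samples.

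RIC interrupts and restores the blood flow of a limb in brief cycles, and is studied for the protection it gives to distant organs through signals carried in blood and nerves. The liver reads such signals together with its nutritional state. In fasting, glucagon and low insulin turn on glucose release and fat oxidation through the factors FoxO1, CREB, PGC-1alpha and PPARalpha, and in feeding insulin turns on glucose uptake and fat synthesis. Heat shock proteins, the chaperones that fold and rescue proteins, are switched on by the heat shock factor HSF1, which binds heat shock elements near their starts.

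Hepatocyte genes were high in every library, with Alb at 21500 to 55800 FPKM, Apoa1 at 4580 to 7550, Ttr at 1300 to 2980 and Cps1 at 329 to 953. The depth, estimated from the smallest steps of the values in single-exon genes, was 15.9 to 26.4 M reads. The summed FPKM on NC was 490879 ± 7663 (SD) after sham and 502693 ± 8370 after RIC, and on CDAHFD 471476 ± 23388 after sham and 436128 ± 11500 after RIC, so the scale moves with the groups, and results that depend on it are named below. CDAHFD sham samples 2 and 5 stood apart from the other CDAHFD sham samples on the fourth principal component, at 20.6 and 16.6 against -9.3 to -3.8. Values without these samples are given where they matter. The 17 hepatocyte markers summed to 51400 to 62500 FPKM after sham and 66000 to 77400 after RIC on NC, and to 43200 to 47700 after sham and 42400 to 54200 after RIC on CDAHFD, with none at 0, and the part of this in the gene results was not tested. In bulk tissue, fewer cells of a type and less RNA per cell cannot be told apart. Levels are in FPKM, and differences are in log2(FPKM + 1), a scale that understates the change of genes near 1 FPKM or below. Adjusted p-values come from limma with Benjamini-Hochberg adjustment over the 10577 genes, and a gene was called at an adjusted p under 0.05.

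The 711 interaction calls were 6.72% of the tested genes, with 3.59% positive and 3.13% negative. RIC itself was called in 2886 genes on CDAHFD (27.3%), 922 higher (8.72%) and 1964 lower (18.6%). On NC it was called in 125 genes (1.18%), 34 higher (0.321%) and 91 lower (0.86%). At an unadjusted p under 0.05 the counts were 2439 for the interaction, 4216 for RIC on CDAHFD and 1747 for RIC on NC. The median over all tested genes was -0.03 for the interaction, -0.08 for RIC on CDAHFD and -0.06 for RIC on NC. A median below 0 means that most tested genes had a negative interaction value, called or not. The balance of directions depended on the scale. With the values rescaled to a common sum, positive genes were 81.1% of the interaction calls in place of 53.4%, and the median of all genes moved to 0.09. Higher genes were 31.9% of the calls of RIC on CDAHFD, and 50.5% with quantile normalization, 55.5% with a common sum or 55.8% after median-ratio scaling. On NC higher genes were 27.2% of the RIC calls, 14.8% with a common sum, 64.4% with quantile normalization and 62.2% after median-ratio scaling. The NC calls were few and unsteady: 13 without NC sham sample 2, 14 without NC RIC sample 2, 24 without NC sham sample 5 and 31 without NC sham sample 1, in place of 125. The number of interaction calls was 1029 without CDAHFD sham sample 2, 1258 without CDAHFD sham samples 2 and 5, 464 without CDAHFD sham sample 3 and 440 without NC sham sample 2.

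Most of the called interactions combined a called RIC difference on CDAHFD with none called on NC. Of the 380 positive genes, 298 rose on CDAHFD with no call on NC, 22 fell on NC with no call on CDAHFD, 11 rose on CDAHFD and fell on NC, and 49 were called on neither diet. Of the 331 negative genes, 296 fell on CDAHFD with no call on NC, 10 rose on NC alone, 7 fell on CDAHFD and rose on NC, 3 fell on both diets, and 15 were called on neither. The RIC difference was the larger in size on CDAHFD in 612 of the 711 genes and on NC in 99, and in 555 the differences on the diets had opposite signs. A call on the difference between the diets itself favours opposite signs, and most of these signs rest on a difference not called on NC. Only 18 genes were called in opposite directions on both diets. The shares of such sizes and signs over all tested genes were not computed. The NC sham mean was under 1 FPKM in 79 of the 331 negative genes and in 8 of the 380 positive ones. At such levels the scale understates any difference on NC, and the interaction rests mostly on the CDAHFD difference. Across the 10577 genes the differences on the diets, which share no sample, had a Pearson r of 0.15 and a Spearman rho of 0.207. Genes within a liver are not independent, so no p is given for these. The sham and RIC samples did not overlap in 1944 of the 10577 genes on CDAHFD and in 502 on NC. The genes below were chosen on the same values, so a lack of overlap describes them and adds no separate support.

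**Figure D1:**
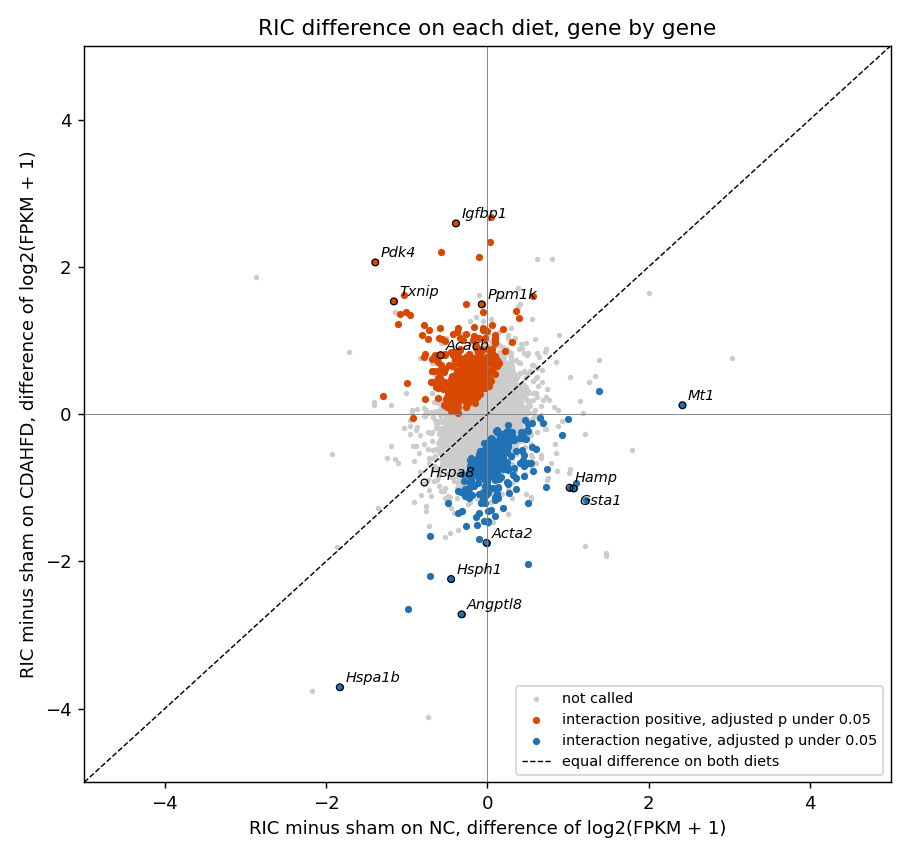
RIC minus sham difference of log2(FPKM + 1) on NC (x axis) and on CDAHFD (y axis), 1 point per tested gene; orange and blue points are genes with a called positive or negative interaction, grey points are not called, and the dashed line marks equal differences. Orange points lie above the line and blue points below it, mostly spread along the CDAHFD axis; Hspa8 sits near the line, and 1 gene lies outside the axes.

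Genes of fasting metabolism led the positive interactions. In the gluconeogenesis and fasting list 8 of 21 tested genes were called, all positive, against 3.59% of all tested genes, and the list's median interaction was 0.57. All 21 had a positive value. On CDAHFD 7 rose with RIC, against 8.72% of all tested genes, and none fell. On NC, 1 of the 21 fell (Pcx), against 0.86% of all tested genes, and none rose. The called genes were Pdk4, Igfbp1, G6pc, Ppargc1a, Pcx, Fbp1, Creb3l3 and Foxo1. Foxo1 (interaction 0.48, adjusted p = 0.0433) and Creb3l3 (0.56, 0.00425) encode factors that drive fasting genes, Ppargc1a (1.36, 0.0115) their coactivator PGC-1alpha, and Fbp1 (0.57, 0.0138) an enzyme of glucose synthesis.

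Pdk4 (chr6:5483351-5496309, mm10, here and below from the GENCODE annotation) encodes pyruvate dehydrogenase kinase 4, which spares glucose by switching off pyruvate oxidation. It was at 17, 9.02, 11.9, 16.7 and 6.03 FPKM in the CDAHFD sham samples and at 54.6, 54.2, 26 and 83.6 in the CDAHFD RIC samples, in replicate order. On NC it was at 7.81, 29.2, 14.6, 8.6 and 50.6 after sham and 4.12, 4.24, 4.86, 12.5 and 6.8 after RIC. Every CDAHFD RIC sample was above every CDAHFD sham sample, while the NC groups overlapped and NC sham samples 2 and 5 were the highest of them. The mean was 4.5 times the sham mean on CDAHFD, the difference on NC was -1.39 (adjusted p = 0.126), and the interaction was 3.45 (95% interval 2.11 to 4.78, adjusted p = 0.00406).

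Igfbp1 (chr11:7197782-7202546), a secreted binder of insulin-like growth factors that insulin represses, was at 47.5, 13.8, 44.5, 69.4 and 9.92 FPKM in CDAHFD sham and 130, 221, 120 and 313 in CDAHFD RIC. The NC samples were at 79.4, 124, 153, 85.9 and 169 after sham and 73.4, 47.6, 74.5, 247 and 87.5 after RIC. The CDAHFD groups did not overlap. The NC groups did, with NC RIC sample 4 far above the other samples of its group. The interaction was 2.98 (95% interval 1.51 to 4.45, adjusted p = 0.0171), and -0.39 was the RIC difference on NC (adjusted p = 0.752).

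G6pc (chr11:101367561-101377903) encodes the catalytic subunit of glucose-6-phosphatase, the last step of glucose release. It was at 34.2, 5.87, 37, 46.9 and 14.8 FPKM in CDAHFD sham, at 63.8, 113, 88.4 and 163 in CDAHFD RIC, at 153, 161, 140, 123 and 218 in NC sham and at 108, 96.3, 114, 225 and 251 in NC RIC. Both NC groups lay above all CDAHFD sham samples, and within CDAHFD the groups did not overlap. The interaction was 2.22 (adjusted p = 0.0373), a call that was lost in 12 of 31 alternatives, with an adjusted p of up to 0.101. CDAHFD sham samples 2 and 5 had the lowest values of Igfbp1 and G6pc in the study. Without them the interaction was 2.15 for Igfbp1 (adjusted p = 0.0253) and 1.45 for G6pc (0.0404). Pck1, the enzyme that starts glucose synthesis from oxaloacetate, was not called (1.02, adjusted p = 0.0744), with 351 ± 129 FPKM in CDAHFD sham and 463 ± 107 in CDAHFD RIC (mean ± SD).

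Angptl8 (chr9:21835510-21837347), which encodes a feeding-induced inhibitor of lipoprotein lipase, had an interaction of the opposite sign. It was at 39.3, 91.2, 56.9, 51.4 and 118 FPKM in CDAHFD sham and 8.39, 13.9, 7.73 and 7.82 in CDAHFD RIC. Its NC samples ranged from 4.43 to 11.8 after sham and from 2.89 to 9.34 after RIC. The CDAHFD sham samples stood apart above all others, and the CDAHFD RIC samples were within or just above the range of the NC samples. The interaction was -2.39 (95% interval -3.34 to -1.44, adjusted p = 0.0047). CDAHFD sham samples 2 and 5 had the highest values, and without them the interaction was -1.96 (adjusted p = 0.00921).

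**Figure D2:**
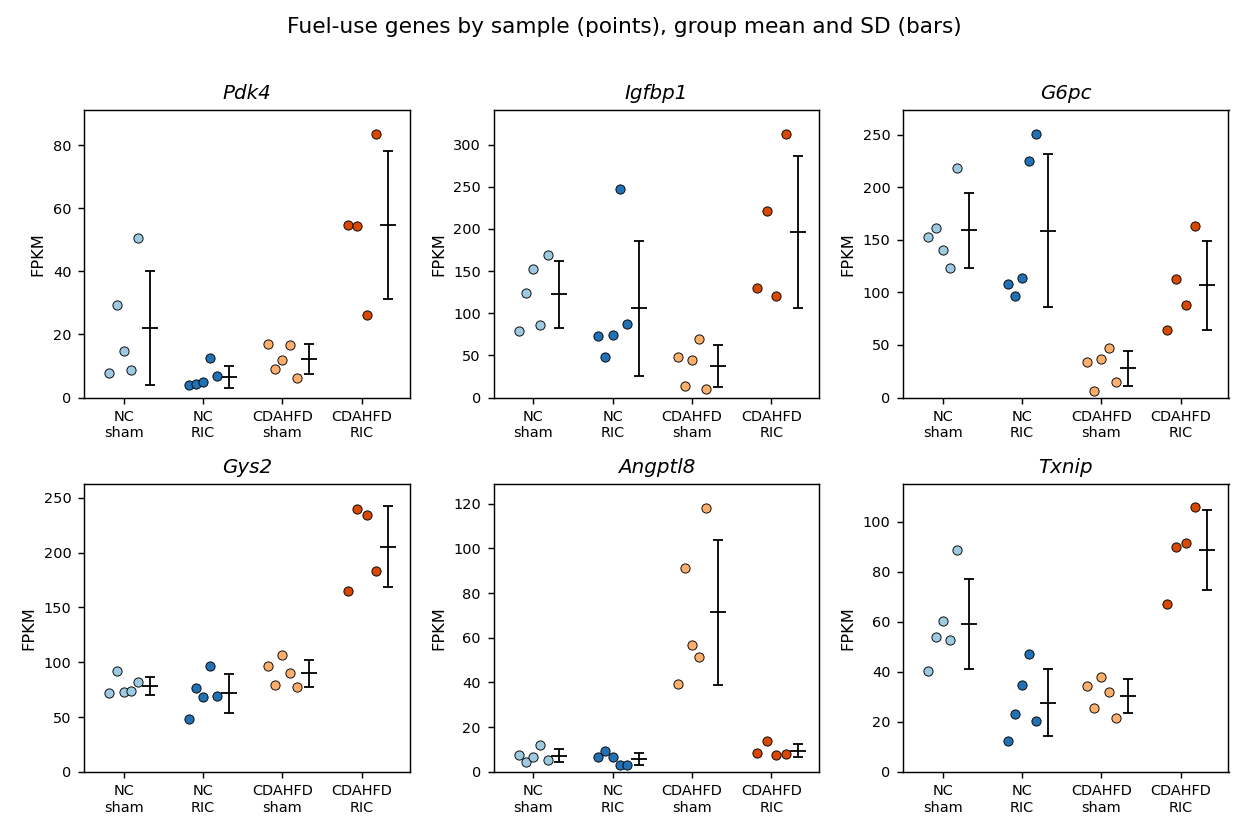
FPKM of 6 genes of fuel use in each of the 19 samples (points, linear axes from 0), with the group mean and SD beside them. Pdk4, Igfbp1, G6pc, Gys2 and Txnip are higher in CDAHFD RIC than in CDAHFD sham with no overlap, Angptl8 is lower with no overlap, and the NC sham and NC RIC samples overlap in all 6 panels.

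Glycogen and glucose handling gave 3 positive and 1 negative call in 20 tested genes, against 3.59% and 3.13% of all tested genes. Gys2, the liver glycogen synthase, was at 89.9 ± 12.3 FPKM in CDAHFD sham and 206 ± 37 in CDAHFD RIC, and at 78.4 ± 8.49 and 71.7 ± 17.7 on NC (mean ± SD). Its interaction was 1.33 (adjusted p = 0.00186). Slc2a2, the glucose transporter GLUT2, had an interaction of 0.57 (0.0469). Ppp1r3g, a glycogen-targeting subunit of protein phosphatase 1, reached 2.32 (0.0484), but its samples ran from 0.0214 to 5.61 FPKM within NC sham alone. The calls of Slc2a2 and Ppp1r3g were lost in 18 and 19 of the alternatives. Rgs16, a regulator of G protein signals, had an interaction of 2.66 (0.0285), a call lost in 4 alternatives (adjusted p up to 0.0803). These were no filter on low values, without NC sham sample 2, without CDAHFD RIC sample 1, and without CDAHFD sham samples 2 and 5. In the last of these the interaction was 1.89 (adjusted p = 0.0516).

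Fat oxidation genes leaned in the same direction as the fasting genes. Of 27 tested genes of fatty acid oxidation and ketogenesis 5 were called, all positive, against 3.59% of all tested genes, and 26 had a positive value (median 0.61). Without CDAHFD sham samples 2 and 5 there were 9 calls in the list, while the calls over all genes rose from 711 of 10577 to 1258 of 10445. On CDAHFD 5 rose with RIC, against 8.72% of all tested genes, and none fell. On NC 1 fell (Cpt1a), against 0.86%, and none rose. Ppara (chr15:85734983-85802819), the nuclear receptor that turns on this pathway, was at 5.79, 11.7, 6.05, 5.75 and 7.47 FPKM in CDAHFD sham and 26.5, 21.6, 22.3 and 12.5 in CDAHFD RIC, and at 12.3 to 20.3 and 12.9 to 21.1 on NC after sham and RIC. The CDAHFD groups did not overlap, and CDAHFD sham sample 2 was well above the rest of its group. The interaction was 1.42 (95% interval 0.82 to 2.03, adjusted p = 0.00779). Echs1, an enzyme of mitochondrial oxidation, had 0.47 (0.018). Among members not called were Ehhadh (0.94, adjusted p = 0.348) and Cyp4a14 (0.65, 0.539).

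Enzymes of fat handling outside that list were among the 12 largest positive values. Hacl1, a peroxisomal lyase that shortens branched and hydroxy fatty acids, was at 12.9, 24.3, 12.7, 20.4 and 17.6 FPKM in CDAHFD sham, 25.4, 35.7, 48.6 and 36.4 in CDAHFD RIC, 88.5, 113, 73.2, 79 and 94.8 in NC sham and 53.9, 52.9, 62.9, 62.6 and 68.8 in NC RIC. No CDAHFD RIC sample was as low as any CDAHFD sham sample, and no NC RIC sample was as high as any NC sham sample. The interaction was 1.58 (adjusted p = 0.00181). Cyp4a32, of a family of fatty acid hydroxylases, had 1.86 (0.00183), and Acot3, an acyl-CoA thioesterase, 1.75 (0.031, lost in 7 alternatives). Both have near-identical neighbours, so their own share of the reads is uncertain. Cyp17a1, a steroid hydroxylase, had 2.39 (0.0215), with CDAHFD RIC sample 3 at 38.3 FPKM and the other samples of that group at 5.48 to 11.7.

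Among lipid droplet genes 2 of 14 were called, both positive, against 3.59% of all tested genes. G0s2, an inhibitor of the lipase ATGL, had an interaction of 1.88 (adjusted p = 0.0134), and Fitm2, which helps droplets form, of 0.91 (0.0023). G0s2 was at 121, 119, 119, 75.4 and 98.1 FPKM in CDAHFD sham and 113, 304, 222 and 311 in CDAHFD RIC, where sample 1 lay inside the sham range. The smallest p of the interaction belonged to Ppm1k (chr6:57506502-57535468), the phosphatase that switches on breakdown of branched-chain amino acids. It was at 6.33, 6.09, 6.45, 8.37 and 5.05 FPKM in CDAHFD sham and 23.3, 19.8, 15.7 and 20.9 in CDAHFD RIC. The NC samples held 14.2 to 20.5 after sham and 15.4 to 19.2 after RIC, so that the CDAHFD sham group stood alone below the other groups. The Ppm1k interaction was 1.56 (95% interval 1.18 to 1.93, adjusted p = 0.000254).

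A smaller set of genes was called in opposite directions by RIC on the diets. RIC was called on both diets in 47 genes, in the same direction in 29 and in opposite directions in 18. Such genes need a call on NC, and the NC calls fell from 125 to 13 without NC sham sample 2. Of the 18 genes, 15 were named and had a symbol of their own. Those that rose on CDAHFD and fell on NC were Txnip (2.69), Acacb (1.38), Lpin2 (1.35), Dnmbp (1.33), Slc25a34 (1.27), Klf11 (1.10), Cpt1a (0.95), Jmy (0.86) and Scap (0.53), with the interaction in parentheses. Those that fell on CDAHFD and rose on NC were Gsta1 (-2.08), Hamp (-2.01), Mgst3 (-1.08), Apol9a (-1.0), Plxnb1 (-0.82) and Pcnx4 (-0.72).

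Txnip (chr3:96557957-96561883), an arrestin-like protein that binds thioredoxin and limits glucose uptake, was at 34.5, 25.6, 38, 32 and 21.5 FPKM in CDAHFD sham and 67, 90.1, 91.7 and 106 in CDAHFD RIC. On NC the values were 40.5, 54.1, 60.3, 52.8 and 88.8 after sham and 12.5, 23.3, 34.6, 47 and 20.5 after RIC. The order of the groups was turned around between the diets, with an overlap on NC where RIC sample 4 reached the sham range. The differences were 1.53 on CDAHFD (adjusted p = 0.00113) and -1.16 on NC (0.0445), and the interaction had an adjusted p of 0.000892.

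The genes of fatty acid entry into mitochondria were in this set together with their opponent. Cpt1a (chr19:3322334-3385733), the carnitine transferase that admits fatty acids, was at 77.8, 77.8, 77.4, 73.9 and 65 FPKM in CDAHFD sham and 83.6, 106, 112 and 104 in CDAHFD RIC, at 60.3, 64.3, 60.8, 51 and 65.7 in NC sham and at 36.7, 38.9, 45.7, 40.5 and 48.1 in NC RIC. Acacb (chr5:114146535-114250761), the carboxylase that makes the malonyl-CoA that inhibits Cpt1a, was at 0.89, 1.2, 0.968, 1.41 and 0.889 in CDAHFD sham, 1.92, 2.85, 3.14 and 2.59 in CDAHFD RIC, 3.24, 4.85, 3.77, 3.05 and 4.41 in NC sham and 2.33, 1.9, 2.4, 2.24 and 2.27 in NC RIC. For both genes the sham and RIC samples did not overlap on either diet. The interaction was 0.95 for Cpt1a (95% interval 0.66 to 1.25, adjusted p = 0.000931) and 1.38 for Acacb (1.04 to 1.72, 0.000254). Lpin2, a phosphatidate phosphatase of triglyceride synthesis, was at 23.3 to 39.2 FPKM in CDAHFD sham, 42.7 to 56.9 in CDAHFD RIC, 44.3 to 59.7 in NC sham and 28.3 to 40.1 in NC RIC, again with no overlap on either diet (adjusted p = 0.000576). Scap, the escort of the sterol-sensing SREBP factors, had 0.22 on CDAHFD (0.0451) and -0.31 on NC (0.0496), both near the threshold.

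The other genes of opposite calls were expressed at a few FPKM. Dnmbp, a scaffold that links dynamin to the actin skeleton, was at 4.6, 4.8, 4.83, 3.71 and 4.99 FPKM in NC sham and 3.04, 2.94, 2.45, 3.14 and 2.79 in NC RIC, and it was at 3.71, 2.58, 1.88, 2.5 and 2.82 after sham and 5.27, 5.21, 4.89 and 6.09 after RIC on CDAHFD. Neither pair of groups overlapped, and the adjusted p of the interaction was 0.000254. Jmy, a p53 cofactor that also nucleates actin, was at 3.32 to 4.13 in NC sham, 2.24 to 2.96 in NC RIC, 2.14 to 2.71 in CDAHFD sham and 3.23 to 3.92 in CDAHFD RIC, with no overlap on either diet (0.00039). Klf11, a transcription factor, fell on NC with no overlap (3.33 to 4.63 FPKM after sham, 1.54 to 2.66 after RIC), and on CDAHFD the groups overlapped (0.00186). Slc25a34, a mitochondrial carrier, had the same layout, with -0.69 on NC (0.0414) and 0.58 on CDAHFD (0.0145).

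On the negative side, Apol9a, of a family of apolipoprotein L genes with near-identical copies, was at 1.81 to 2.89 FPKM in NC sham and 3.07 to 5.06 in NC RIC, and its CDAHFD groups overlapped (6.55 to 9.76 after sham, 5.01 to 7.31 after RIC). The adjusted p was 0.00449. Plxnb1, a semaphorin receptor, had 0.48 on NC (0.0496) with overlap and -0.34 on CDAHFD (0.044) without it. Pcnx4 had 0.39 on NC (0.0496) and -0.33 on CDAHFD (0.0216), with no overlap on either. Of these 15 genes, Hamp, Scap, Plxnb1 and Pcnx4 had an adjusted p of 0.0496 on NC, next to the threshold.

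**Figure D3:**
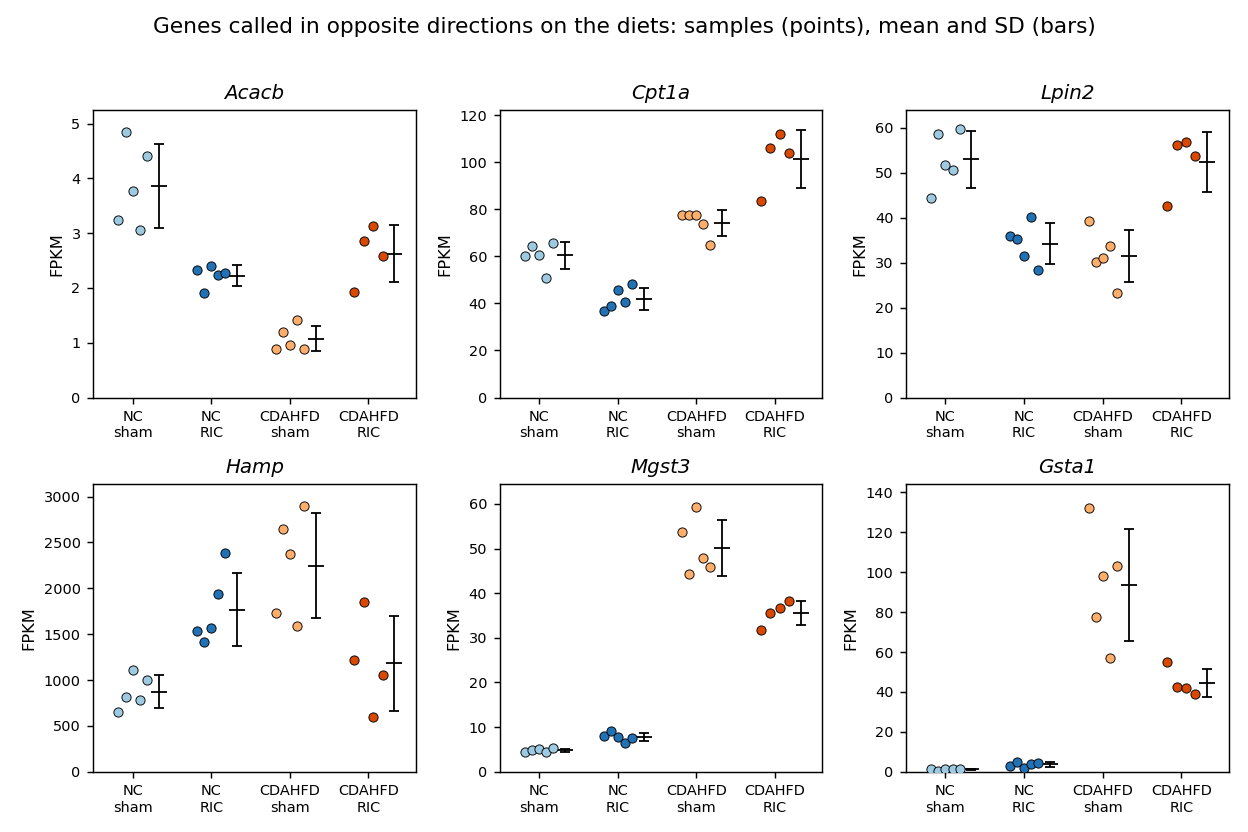
FPKM of 6 genes called in opposite directions on the diets, in each of the 19 samples (points, linear axes from 0), with the group mean and SD beside them. Acacb, Cpt1a and Lpin2 fall from sham to RIC on NC and rise on CDAHFD; Hamp, Mgst3 and Gsta1 rise on NC and fall on CDAHFD, with overlap on CDAHFD for Hamp.

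Among heat shock genes, falls with RIC on CDAHFD and negative interactions were frequent. Of 20 tested heat shock proteins and cochaperones 9 were called, all negative, against 3.13% of all tested genes, and 19 had a negative value (median -0.61). RIC lowered 17 of them on CDAHFD, against 18.6% of all tested genes, and 5 on NC, against 0.86%, and raised none on either diet. The called genes were Hspa1a, Hspa1b, Hsph1, Dnajb1, Dnaja1, Ahsa1, Stip1, Fkbp4 and Cryab. When the values were rescaled to a common sum 6 of the 20 were called, while negative calls over all genes fell from 331 to 155.

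The binding site of HSF1 is built from the unit nGAAn, and its core of a facing pair of units, GAANNTTC, was searched on both strands of the promoter windows of RefSeq (GRCm38.p6), which run from 250 bases before a start to 50 after it. The word reads as itself on the other strand, and 7.86% of 32851 windows of all genes hold it. Of the tested heat shock genes 16 had a window. The word was in 5 of the 8 called ones and in 5 of the 8 that were not called. The windows of 3 called genes and, for contrast, of Hspb1, which was not called and holds it in 2 places, are printed 5′ to 3′ on the gene's own strand with GAANNTTC in capitals.
Hspa1b, chr17:34959189-34959488, minus strand: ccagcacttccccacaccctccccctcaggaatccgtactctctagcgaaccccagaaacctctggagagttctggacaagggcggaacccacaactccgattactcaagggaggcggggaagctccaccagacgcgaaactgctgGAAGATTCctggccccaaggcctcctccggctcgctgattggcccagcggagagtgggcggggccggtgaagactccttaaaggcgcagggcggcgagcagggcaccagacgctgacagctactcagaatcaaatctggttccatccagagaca
Dnaja1, chr4:40722218-40722517, plus strand: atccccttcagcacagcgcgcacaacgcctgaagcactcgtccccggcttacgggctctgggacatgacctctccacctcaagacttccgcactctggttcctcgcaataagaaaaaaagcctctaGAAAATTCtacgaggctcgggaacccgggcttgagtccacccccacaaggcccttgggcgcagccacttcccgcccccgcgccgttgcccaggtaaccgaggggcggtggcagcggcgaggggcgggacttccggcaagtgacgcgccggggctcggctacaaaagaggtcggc
Fkbp4, chr6:128438607-128438906, minus strand: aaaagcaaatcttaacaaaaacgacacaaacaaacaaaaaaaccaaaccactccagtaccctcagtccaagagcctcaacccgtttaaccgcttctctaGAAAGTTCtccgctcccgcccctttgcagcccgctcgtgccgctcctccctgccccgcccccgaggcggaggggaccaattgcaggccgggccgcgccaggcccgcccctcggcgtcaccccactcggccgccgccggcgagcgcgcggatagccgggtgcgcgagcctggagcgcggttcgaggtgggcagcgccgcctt
Hspb1, chr5:135887669-135887968, plus strand: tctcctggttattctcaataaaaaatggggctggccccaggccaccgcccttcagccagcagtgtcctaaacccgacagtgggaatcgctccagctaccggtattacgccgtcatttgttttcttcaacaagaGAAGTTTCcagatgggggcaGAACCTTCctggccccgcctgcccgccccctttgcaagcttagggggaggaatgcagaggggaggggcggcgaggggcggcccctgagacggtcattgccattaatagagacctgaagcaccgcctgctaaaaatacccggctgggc
A match describes letters and not a bound site. The window of Hspa1a differs from that of Hspa1b at 4 of 300 positions, and as the genes are near-identical copies their reads cannot be told apart with certainty.

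Hspa1b (chr17:34956436-34959238) encodes the stress-inducible Hsp70. It was at 55.7, 20.5, 42.4, 32.9 and 33.3 FPKM in CDAHFD sham and 1.54, 1.44, 1.58 and 2.61 in CDAHFD RIC. Its levels on NC were 17.9, 20.7, 8.82, 9.96 and 15.1 after sham and 2.47, 3.15, 2.26, 3.88 and 4.48 after RIC. RIC samples were below all sham samples on both diets, and the sham level was the higher on CDAHFD, 37 against 14.5 on average. The sham mean was 20.6 times the RIC mean on CDAHFD and 4.46 times on NC. The differences were -3.71 (adjusted p = 6.86e-08) and -1.83 (0.00462), and the interaction was -1.88 (95% interval -2.63 to -1.14, adjusted p = 0.00449). Hspa1a followed with -1.68 (0.0023). Dnajb1, an Hsp40 that feeds clients to Hsp70, was the remaining gene that fell on both diets with a called interaction (-0.94, 0.00122).

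Other called chaperones fell on CDAHFD with no call on NC. Hsph1 (chr5:149614287-149636376), the Hsp110 that recharges Hsp70, was at 15.6, 13.9, 15.1, 16.6 and 20.8 FPKM in CDAHFD sham and 3.66, 2.49, 1.99 and 2.68 in CDAHFD RIC. It was at 21.1, 20.7, 10.9, 15.7 and 17.4 in NC sham and 9.57, 18.2, 12.9, 9.54 and 11.2 in NC RIC. The sham groups of the diets were alike in range, the NC groups overlapped, and the CDAHFD RIC samples lay below all others. The interaction was -1.78 (95% interval -2.34 to -1.23, adjusted p = 0.000931). Fkbp4, a cochaperone of Hsp90 and steroid receptors, was at 53 to 79 in CDAHFD sham and 20.5 to 27.6 in CDAHFD RIC, and at 31.2 to 47.8 and 25.3 to 45.8 on NC (-1.24, 0.00251). Stip1, which links Hsp70 to Hsp90, had -0.81 (0.0231), the Hsp40 Dnaja1 -0.69 (0.0193), the small heat shock protein Cryab -0.85 (0.0328) and the Hsp90 activator Ahsa1 -0.54 (0.0472).

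The most abundant member with a called fall on both diets had no called interaction. Hspa8, the constitutive Hsc70, was at 469, 332, 358, 428 and 464 FPKM in CDAHFD sham and 174, 225, 249 and 208 in CDAHFD RIC. On NC it was at 413, 507, 367, 366 and 418 after sham and 201, 230, 331, 224 and 229 after RIC. Sham and RIC samples were apart on both diets, and NC RIC sample 3 was the highest of its group. The differences were -0.93 and -0.78 (adjusted p = 0.000342 and 0.0141), and the interaction was -0.15 (95% interval -0.58 to 0.27, adjusted p = 0.691). Bag3, a cochaperone that HSF1 induces, also fell on both diets with no called interaction (-0.47, 0.131). Hspb1 had -1.23 (0.0949) and Hsp90aa1 -0.92 (0.142). Hspd1, the mitochondrial Hsp60, was the 1 member with a positive value, 0.08 (0.788).

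**Figure D4:**
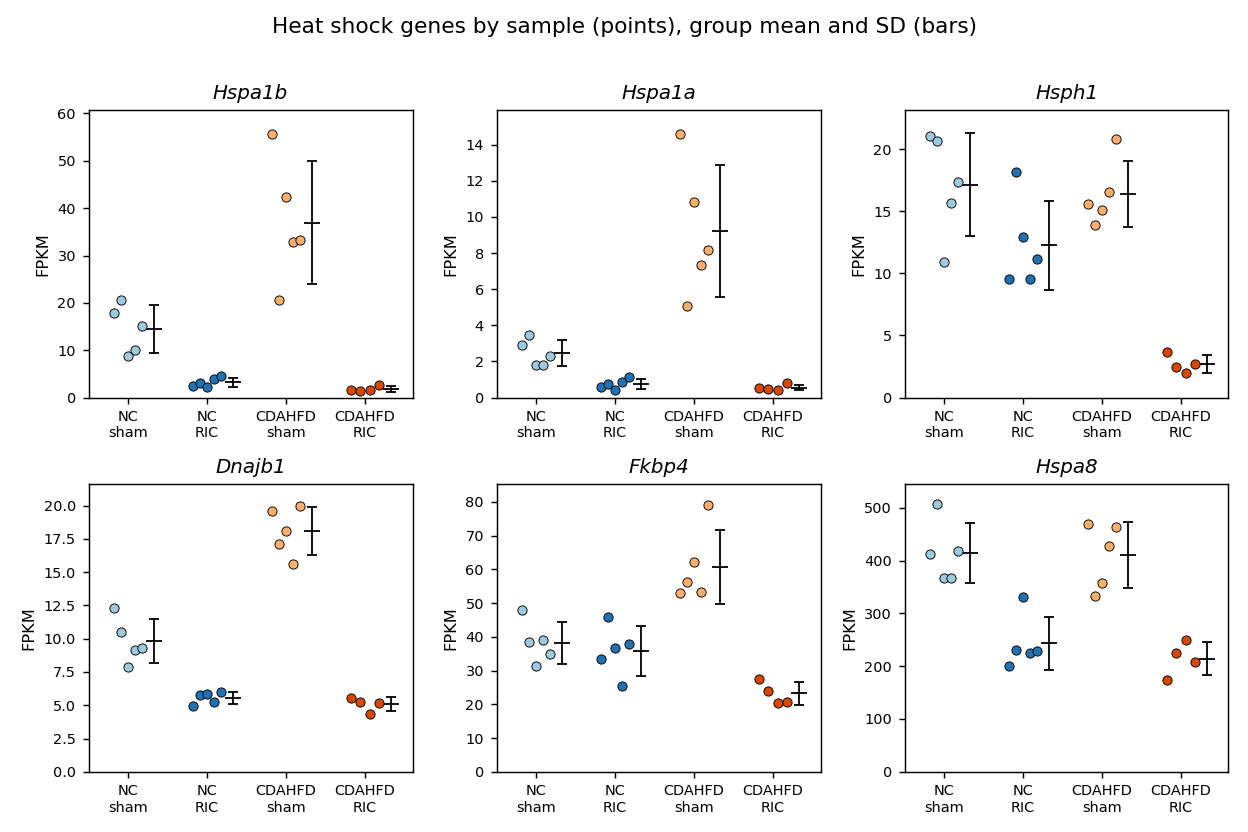
FPKM of 6 heat shock genes in each of the 19 samples (points, linear axes from 0), with the group mean and SD beside them. Hspa1b, Hspa1a and Dnajb1 have a higher mean in CDAHFD sham than in NC sham and are low after RIC on both diets; in Hsph1 and Fkbp4 the RIC and sham samples overlap on NC but not on CDAHFD, and in Hspa8 they do not overlap on either diet.

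Called interactions of early response and inflammation genes were negative. Of 15 tested immediate early genes 5 were called, all negative, against 3.13% of all tested genes, and 4 had a positive value (median -0.62). They were Jun, Jund, Ier3, Atf3 and Nr4a1, which encode factors and a survival protein induced within minutes to hours of stress or growth signals. RIC lowered 10 of the 15 on CDAHFD, against 18.6% of all tested genes, and none on NC, against 0.86%. Jun was at 37.6, 33, 41.8, 31.3 and 31.6 FPKM in CDAHFD sham and 13.3, 17.8, 5.95 and 18.2 in CDAHFD RIC, with no overlap, and at 1.99 to 5.04 and 2.45 to 6.31 on NC (-1.48, adjusted p = 0.0218). Atf3 was at 20.8, 22.3, 26.5, 21.4 and 26.8 in CDAHFD sham and 12.5, 12.7, 6.79 and 9.37 in CDAHFD RIC, and at most at 0.759 in any NC sample (-1.27, 0.0023). Ier3 had -1.47 (0.000463). The log2(FPKM + 1) scale holds differences of genes as low as Atf3 and Ier3 on NC near 0. With a pseudocount of 0.1 the interactions of Atf3 and Ier3 were -1.66 (adjusted p = 0.0381) and -2.31 (0.0114).

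Of 19 tested cytokine and chemokine genes 5 were called, all negative, against 3.13% of all tested genes, and 5 had a positive value (median -0.39). Cxcl10, a lure for T cells, was at 8.07, 6.77, 9.82, 7.54 and 8.46 FPKM in CDAHFD sham and 4.85, 3, 1.5 and 3.09 in CDAHFD RIC, with no overlap, and at most at 0.378 on NC (-1.18, adjusted p = 0.00465). The monocyte attractants Ccl7 (-0.91, 0.00964) and Ccl2 (-0.72, 0.0238) and the macrophage chemokine Ccl3 (-0.53, 0.0348) followed, and the adhesion molecule Icam1 had -0.71 (0.00632). Ccl7 was listed at 0 in all 10 NC samples, so its interaction is the CDAHFD difference alone. With a pseudocount of 0.1 Ccl2 (-0.86, adjusted p = 0.308) and Ccl7 (-1.41, 0.0669) were no longer called. Of 22 tested interferon response genes 4 were called, all negative, against 3.13% of all tested genes, and 6 had a positive value. Isg15, a ubiquitin-like protein, had -1.22 (0.0114), and Bst2, Stat2 and Usp18 had -0.48, -0.52 and -0.68 with adjusted p between 0.0425 and 0.0495. Each of the latter calls was lost in 18 or more of the alternatives.

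Few matrix and myofibroblast genes passed the interaction test. Of 28 tested matrix genes 3 were called, all negative, against 3.13% of all tested genes (median interaction -0.36). RIC lowered 14 of the 28 on CDAHFD, against 18.6% of all tested genes, a share that depends on the scaling, and none on NC. Thbs1 (chr2:118111876-118127133), thrombospondin-1, which activates TGF-beta, was at 3.2, 5.52, 7.05, 4.39 and 4.86 FPKM in CDAHFD sham and 1.19, 1.07, 0.613 and 1.84 in CDAHFD RIC, and at most at 0.174 on NC. The CDAHFD groups did not overlap, and the interaction was -1.46 (adjusted p = 0.000892). The RIC difference was -1.46 on CDAHFD and 0.01 on NC, where the gene was near 0, so the interaction is in effect the CDAHFD difference. Cyr61, a matrix-associated signalling protein, had -1.41 (0.00264). The collagen Col1a1 was at 8.68, 3.47, 15.7, 10.4 and 5.16 in CDAHFD sham and 2.79, 3.35, 1.21 and 8.4 in CDAHFD RIC, with overlap, and was not called (-0.98, 0.206).

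Of 13 tested stellate cell and myofibroblast markers 2 had a called interaction, both negative, against 3.13% of all tested genes. On CDAHFD 7 fell with RIC, against 18.6% of all tested genes, a share that depends on the scaling. Acta2 (chr19:34241090-34255590), smooth muscle actin, was at 6.78, 4.17, 14.8, 6.65 and 9.76 FPKM in CDAHFD sham and 1.38, 1.25, 1.27 and 2.77 in CDAHFD RIC, with no overlap. Its NC samples were at most at 0.475, and the interaction was -1.75 (95% interval -2.42 to -1.07, adjusted p = 0.00399). Here too the interaction is in effect the CDAHFD difference (-1.75), with -0.01 on NC. Tagln, which binds actin in contractile cells, had -1.26 (0.0221), a call lost with a pseudocount of 0.1 and with no filter (adjusted p up to 0.0787). Without CDAHFD sham samples 2 and 5 the calls were 7 of the stellate list and 9 of the matrix list. The calls over all genes also rose there, from 711 of 10577 to 1258 of 10445. The summed level of the 14 stellate markers was 192 to 356 FPKM in CDAHFD sham, 147 to 231 in CDAHFD RIC, 26.6 to 48.7 in NC sham, where 1 marker was at 0 in all samples, and 27.2 to 37.4 in NC RIC. Its part in the matrix and cytokine results was not tested.

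Markers of other cells were mostly higher on CDAHFD, with RIC ranges that overlapped those of sham except for B cells. The 13 Kupffer cell markers summed to 464 to 626 FPKM in CDAHFD sham, 525 to 945 in CDAHFD RIC, 87.5 to 112 in NC sham and 72.5 to 120 in NC RIC, and Timd4, a receptor of resident Kupffer cells, was called (0.65, adjusted p = 0.0472, lost in 18 alternatives). The 20 markers of monocytes and lipid-associated macrophages summed to 1590 to 2400 in CDAHFD sham and 1120 to 2220 in CDAHFD RIC, against 187 to 203 and 163 to 195 on NC. None of their 18 tested genes had a called interaction, Spp1 included (-0.35, 0.709). On CDAHFD 2 of the 18 fell with RIC, against 18.6% of all tested genes, while 5 of the 13 Kupffer cell markers rose, against 8.72%. The 12 B and plasma cell markers summed to 56 to 89.1 in CDAHFD sham and 23.8 to 49.4 in CDAHFD RIC. Of the 3 tested none had a called interaction, and 2 fell with RIC on CDAHFD, against 18.6% of all tested genes. The 12 neutrophil markers summed to 15.2 to 38.3 in CDAHFD sham and 14.6 to 22.1 in CDAHFD RIC, and 5 of the 12 were at 0 in all NC sham samples. Of the 3 tested, S100a8 had -1.17 (0.0221). The part of these cells in the inflammatory gene results was not tested.

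Iron and metal genes held some of the few that RIC raised on NC. Of 15 tested metallothionein and iron genes 5 had a called interaction, all negative, against 3.13% of all tested genes (median -0.29). RIC raised 3 of the 15 on NC (Hamp, Mt1 and Mt2), against 0.321% of all tested genes. It lowered 5 on CDAHFD, against 18.6% of all tested genes. Hamp (chr7:30942368-30944032), hepcidin, the liver hormone that blocks iron export, was at 654, 816, 1110, 786 and 1000 FPKM in NC sham and 1530, 1410, 1570, 1940 and 2380 in NC RIC. On CDAHFD it was at 1730, 2650, 2370, 1590 and 2900 after sham and 1220, 1850, 596 and 1060 after RIC. The NC groups did not overlap, and on CDAHFD 1 RIC sample reached into the sham range. The differences were 1.02 on NC (adjusted p = 0.0496, at the threshold) and -1.0 on CDAHFD (0.0096), and the interaction was -2.01 (95% interval -2.76 to -1.27, adjusted p = 0.00295).

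Hamp2, a near-identical neighbour whose reads may be shared with Hamp, had -2.39 (0.0273). Hamp is switched on by BMP and SMAD signals, which also induce Id1, Id3 and the inhibitor Smad7. Id1 had -1.13 (0.037) and Smad7 -1.20 (0.00243), both with a called fall on CDAHFD and none on NC. Id3, a helix-loop-helix inhibitor outside the list but among the 12 lowest values, was at 62.9, 79.4, 74, 67 and 84.4 FPKM in CDAHFD sham and 25.7, 56.7, 32.4 and 37.2 in CDAHFD RIC. The NC samples were at 8.03, 7.57, 7.58, 10.1 and 10.8 after sham and 21.1, 20.7, 14, 12.1 and 10.6 after RIC. The CDAHFD groups did not overlap and the NC groups did, and the interaction was -1.72 (adjusted p = 0.00186). Mt1, metallothionein, a zinc and copper binder, had its change on NC: it was at 16.2, 12.1, 70.3, 10.1 and 11.9 in NC sham and 115, 72.6, 114, 174 and 57.9 in NC RIC, and at 53.8 to 125 and 60.3 to 143 on CDAHFD. NC sham sample 3 lay far above the rest of its group and within the RIC range. The interaction was -2.30 (0.0306), lost in 8 alternatives.

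Gsta1 and Mgst3, both of glutathione metabolism, had the pattern of hepcidin. Gsta1 (chr9:78230656-78242684), which detoxifies products of lipid peroxidation, was at 1.27, 0.481, 1.5, 1.27 and 1.48 FPKM in NC sham and 2.99, 4.96, 2.14, 3.71 and 4.48 in NC RIC. On CDAHFD it was at 132, 77.6, 97.9, 57.1 and 103 after sham and 54.9, 42.6, 42 and 38.9 after RIC. The groups did not overlap on either diet, and the interaction was -2.08 (95% interval -2.71 to -1.45, adjusted p = 0.000892). Mgst3 (chr1:167371966-167393841), a membrane-bound glutathione peroxidase and transferase, was at 4.43, 4.8, 5.14, 4.36 and 5.28 FPKM in NC sham and rose to 8.07, 9.03, 7.8, 6.54 and 7.5 in NC RIC. From 53.6, 44.2, 59.2, 47.9 and 45.8 in CDAHFD sham it fell to 31.8, 35.5, 36.6 and 38.2 in CDAHFD RIC. Here too no sham sample overlapped with RIC on either diet (-1.08, -1.35 to -0.80, 0.00039). Gsta2 rose on NC (1.0, 0.0246) with -0.06 on CDAHFD, and its interaction (-1.06, 0.0359) was lost in 15 alternatives. Gsta1 and Gsta2 have near-identical copies, and reads may be split among them. In the wider list of NRF2 and oxidative stress genes Gsta1 and Gsta2 were the only 2 called of 21 tested. Both were negative, against 3.13% of all tested genes.

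**Figure D5:**
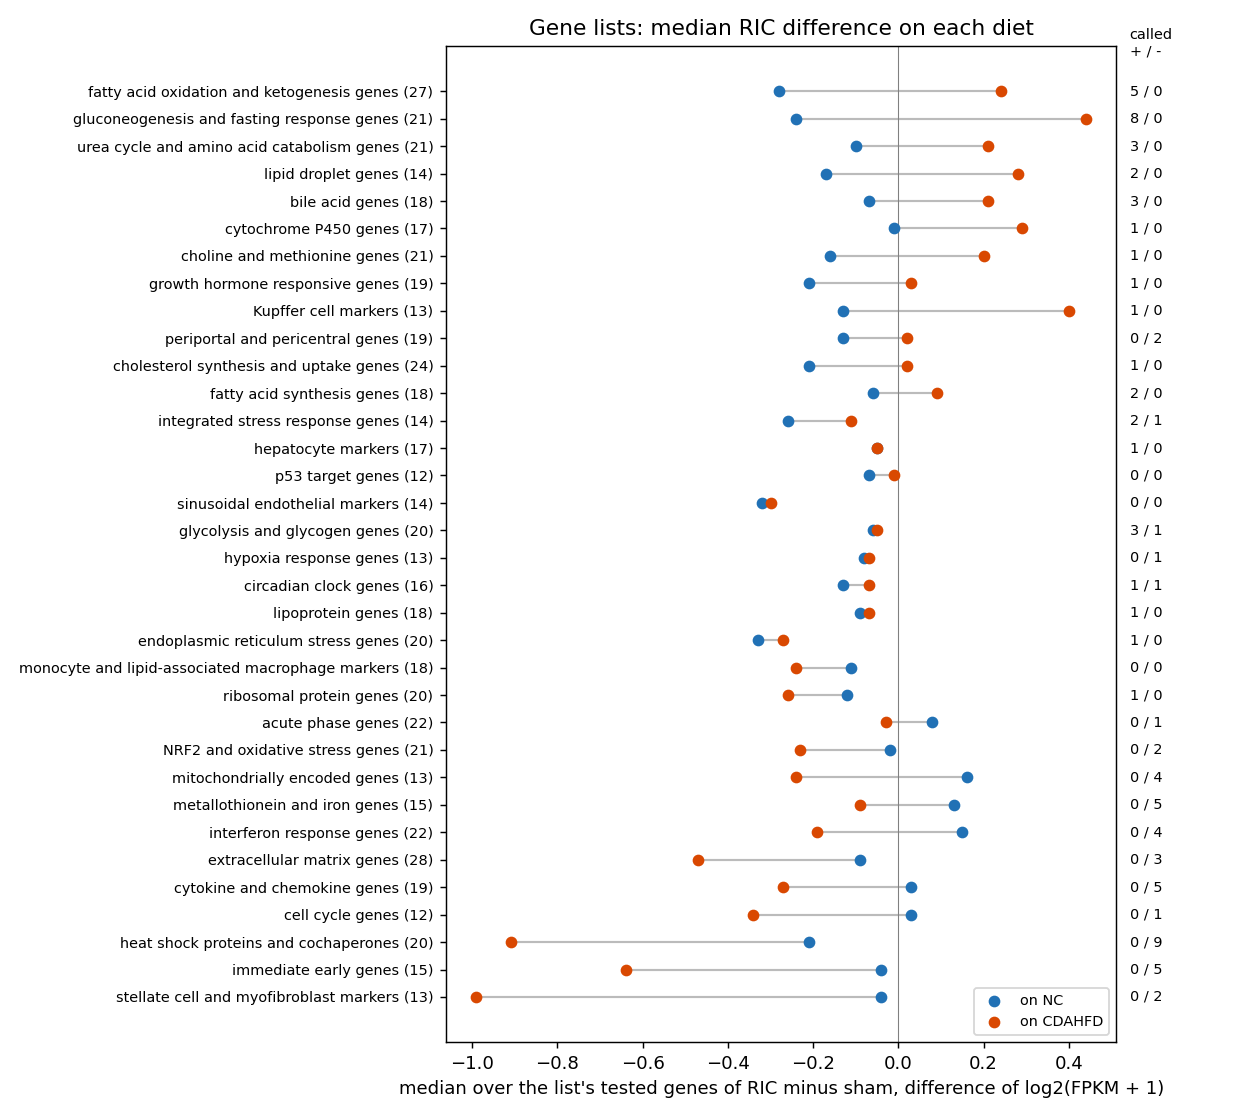
Median RIC minus sham difference of log2(FPKM + 1) over the tested genes of each list with at least 10 of them, on NC (blue) and on CDAHFD (orange); the number tested is in parentheses and called positive and negative interactions are at the right. Fasting and fat oxidation genes lie below 0 on NC and above it on CDAHFD, and stellate, early response and heat shock genes lie furthest below 0 on CDAHFD.

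Other metabolic lists held 1 to 3 calls each. Bile acid genes gave 3 of 18, all positive, against 3.59% of all tested genes (median 0.42): the canalicular pumps Abcc2 (0.79, adjusted p = 0.0025) and Abcb4 (0.80, 0.00415), and the uptake carrier Slco1a1 (0.90, 0.0249). Slco1a1 was at 0.166 to 0.339 FPKM in CDAHFD sham and 0.781 to 1.34 in CDAHFD RIC, against 83.3 to 109 and 49.8 to 111 on NC, and its call was lost in 7 alternatives. Cyp7a1, which starts bile acid synthesis, was not called (-1.24, 0.129). Urea cycle and amino acid genes gave 3 of 21, all positive, against 3.59% of all tested genes (median 0.44). Among them were the carbamoyl phosphate synthetase Cps1 (1.02, 0.0193) and the lysine-degrading Aass (1.25, 0.0119). Mat1a, which makes S-adenosylmethionine, was the 1 call of 21 choline and methionine genes (1.08, 0.0191), against 3.59% of all tested genes. In this list 7 were called after rescaling to a common sum and 3 without CDAHFD sham samples 2 and 5. The calls over all genes in these settings were 822 of 10577, 667 of them positive, and 1258 of 10445. Of 24 sterol genes 23 had a positive value, with 1 call (Hsd17b7, 0.85, 0.0425), against 3.59% of all tested genes. That call was lost in 15 of the alternatives. The list's median was 0.16, and that of all tested genes was -0.03, or 0.09 after rescaling to a common sum.

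Single calls came from further lists. Por, the reductase that feeds electrons to all microsomal cytochromes P450, was at 69.5, 43.8, 59.2, 77.6 and 40.9 FPKM in CDAHFD sham and 101, 98, 86.1 and 117 in CDAHFD RIC, with no overlap and with CDAHFD sham samples 2 and 5 lowest (0.92, adjusted p = 0.0225). On NC it was at 50.2 to 80.2 after sham and 50.4 to 63.1 after RIC. Scarb1, the HDL receptor, was at 7.86 to 9.6 in CDAHFD sham and 11.4 to 14.3 in CDAHFD RIC, with no overlap (0.58, 0.0334, lost in 11 alternatives). Dnajb9, a chaperone of the endoplasmic reticulum that binds BiP, had a positive value (0.96, 0.016), unlike the cytosolic Hsp40 genes Dnajb1 and Dnaja1. Fads2, a desaturase that makes polyunsaturated fats, had 0.59 (0.0488), a call lost in 22 of the alternatives, the one without CDAHFD sham samples 2 and 5 among them, with groups that did not overlap on NC only, where the RIC difference was -0.46 (0.0705).

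Of 19 tested periportal and pericentral genes 2 were called, both negative, against 3.13% of all tested genes. The list leaned the other way, with 11 positive values and a median of 0.22. The called genes were Tbx3 (-0.62, adjusted p = 0.0494) and Rnf43 (-0.59, 0.0352), targets of the Wnt signal that marks hepatocytes around the central vein. Tbx3 was at 5.98, 3.8, 4.28, 4.28 and 4.55 FPKM in CDAHFD sham and 1.96, 2, 2.01 and 1.83 in CDAHFD RIC, and Rnf43 at 2.34, 2.96, 2.71, 2.03 and 2.96 and 1.73, 1.21, 1.44 and 1.01. Neither overlapped on CDAHFD and both did on NC. These calls were lost in 21 and 15 alternatives. Steap4, a metalloreductase induced by inflammation, had -1.07 (0.0269), a call lost with no filter, with a common sum, without CDAHFD RIC sample 3 and without CDAHFD sham samples 2 and 5 (adjusted p up to 0.0701). Egln3, an oxygen-sensing prolyl hydroxylase, had -0.93 (0.0419), lost in 17 alternatives. Without CDAHFD sham samples 2 and 5 the calls of Scarb1, Rnf43, Egln3, Fgf21 and Ppp1r3g were also lost.

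Stress and clock lists were mixed, set against 3.59% positive and 3.13% negative calls over all tested genes. In the integrated stress response the secreted hormone Fgf21 (1.54, adjusted p = 0.0431) and the pseudokinase Trib3 (1.12, 0.0229) were positive and the factor Ddit3 (CHOP) negative (-0.72, 0.0353) among 14 tested. Fgf21 was at 8.35, 9.37, 6.11, 5.85 and 11.2 FPKM in NC sham and 1.44, 1.82, 3.3, 2.94 and 4.48 in NC RIC, with no overlap, and at 7.3 to 28.1 and 9.99 to 25.7 on CDAHFD, with overlap. Its call was lost in 17 alternatives, and that of Ddit3 in 13. Of 16 clock genes, the repressors Cry2 (0.55, 0.0105) and Per2 (-0.97, 0.0145) were called in opposite directions. Per2 was at 12.9, 8.55, 14.7, 13 and 18.1 in CDAHFD sham and 4.28, 4.21, 4.85 and 5 in CDAHFD RIC, with no overlap, and at 2.68 to 4.32 and 1.62 to 3.19 on NC. Per1 (-0.12, 0.766), Nr1d1 (0.58, 0.263) and Dbp (-0.67, 0.361) were not called.

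All 13 mitochondrially encoded genes had a negative value, and 4 were called, against 3.13% of all tested genes. They were mt-Nd1 (-0.67), mt-Nd3 (-0.58), mt-Co2 (-0.53) and mt-Nd2 (-0.48), with adjusted p between 0.00771 and 0.0343. The calls of mt-Nd3, mt-Co2 and mt-Nd2 were lost in 5, 9 and 11 alternatives. With median-ratio scaling 1 of the 13 was called, and with quantile normalization the list's median was 0. Without CDAHFD sham samples 2 and 5 there were 7, while the calls over all genes rose from 711 of 10577 to 1258 of 10445. Of 20 ribosomal protein genes 1 was called, Rpl3 (0.38, 0.0318, lost in 7 alternatives), against 3.59% positive calls over all tested genes. Of 12 cell cycle genes 1 was called, the proliferation marker Mki67 (-0.84, 0.0135), against 3.13% negative calls. The Mki67 call was lost with a pseudocount of 0.1. No call was made among the 14 sinusoidal endothelial, 6 cholangiocyte, 5 red cell and 12 p53 target genes tested. The medians of the acute phase, endoplasmic reticulum stress, glycolysis and glycogen, and ribosomal protein lists changed sign under another scaling. The transcription factor Hhex, of no list but among the 12 lowest values, was at 20, 18.1, 19.4, 22.6 and 18.4 FPKM in CDAHFD sham and 7.29, 8.07, 9.23 and 7.19 in CDAHFD RIC, and at 2.04 to 5.94 and 4.46 to 15.2 on NC, where RIC sample 5 was alone above 6.78 (-1.72, 0.00792). Rnf125, a ubiquitin ligase, was at 1.42, 8.87, 1.52, 2.12 and 3.08 in CDAHFD sham and 28.8, 26.9, 21.9 and 16.5 in CDAHFD RIC, with no overlap, against 14.5 to 42.6 and 19.1 to 33 on NC (2.62, 0.00399).

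Genes with the smallest p held other roles. Besides Ppm1k, Acacb, Dnmbp, Mgst3, Jmy, Ier3 and Lpin2 they were Bag4, an Hsp70 cochaperone that blocks death receptors (1.18), Slc25a32, the mitochondrial folate carrier (1.04), Slc23a2, a vitamin C transporter (1.31), Crebrf, a regulator of CREB3 and of energy stores (1.22), and the zinc finger gene Zfp871 (0.96). Their adjusted p lay between 0.000254 and 0.000576. In Bag4, Slc25a32, Crebrf and Zfp871, CDAHFD sham lay below the other 3 groups: Crebrf was at 2.49 to 3.41 FPKM there, at 6.61 to 8.26 in CDAHFD RIC, at 6.21 to 7.76 in NC sham and at 4.19 to 7.13 in NC RIC. In Slc23a2 the CDAHFD RIC group stood alone, at 5.55 to 8.46 against 2.53 to 4.08 in CDAHFD sham, 2.07 to 2.69 in NC sham and 1.28 to 2.16 in NC RIC. Bag4 thus had the sign opposite to that of the called heat shock genes.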

How the data were processed

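RNA of 19 mouse liver samples was extracted with Trizol and made into libraries with a VAHTS kit, per the labels' protocols. The authors deposited 1 table of FPKM values with a column for each sample, and the program, gene annotation and strand setting behind the FPKM are not given in the sources used here. Per the submitters' processing notes, FastQC 0.11.9, Trimmomatic 0.38, HISAT2 2.2.1, HTSeq 0.13.5, R 3.4.1 and DESeq2 1.18.1 were used with the mm10 build. Groups were taken from the labels, and every column belonged to a sample. The depth was estimated from the steps of low values; since only 24.3 to 29% of these lay within 0.05 of a whole read, reads were not recovered and no count test was run. Entries without a gene name (3225, 0.123 to 0.204% of the FPKM) were left out. No pair of samples held more than 0.00945% equal values above 0.

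From the deposited FPKM, log2(FPKM + 1) was computed for the 10577 named entries with a mean of at least 1 FPKM. A model of the 4 group means was fitted with limma 3.58.1 in R 4.3.3, with a trended prior of the spread and 15 residual degrees of freedom, and tested on simulated data first. P-values were adjusted by Benjamini-Hochberg over all tested genes. Alternatives comprised other pseudocounts, a square root, other filters, other scalings, sample weights, a replicate block and leaving out samples. Shared replicate numbers did not pair the samples.

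The comparison, gene lists and tests were chosen with earlier results of these data known. Genes were named by rule: the 12 largest positive and negative interactions and the 12 smallest p among called genes with a symbol of their own, up to 4 called members of each list, genes called in opposite directions, and 18 genes set by name. This gave 108 genes, of which not all are described, and a few results are not reported here. Any gene named outside this rule was picked with its values in view. Gene positions are from GENCODE vM21 (GRCm38, 47824 symbols matched) and promoter windows from RefSeq (GRCm38.p6).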

Additional observations from a re-analysis of the deposited data

Results flagged for a closer look

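The interaction itself is the test of whether the RIC difference differs between diets, and it was called in 711 genes. Over all tested genes RIC was called on both diets in 47, in the same direction in 29 and in opposite directions in 18. Among the 711, 15 named genes had a called RIC difference of opposite sign on each diet. Their interactions were 2.69 for Txnip, 1.38 for Acacb, 1.35 for Lpin2, 1.33 for Dnmbp, 1.27 for Slc25a34, 1.10 for Klf11, 0.95 for Cpt1a, 0.86 for Jmy and 0.53 for Scap. On the negative side they were -2.08 for Gsta1, -2.01 for Hamp, -1.08 for Mgst3, -1.0 for Apol9a, -0.82 for Plxnb1 and -0.72 for Pcnx4.

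In 24 of 399 groups of samples of the named genes, 1 sample lay far from the others by Dixon's test, and chance flags about 1 in 20 groups. In NC sham these were Klf11 in sample 1 (4.63 FPKM), Mt1 in sample 3 (70.3), Gsta1 in sample 2 (0.481), and Dbp (3.61) and mt-Nd2 (11400) in sample 4. In NC RIC they were Hspa8 (331) and Hsd17b7 (9.72) in sample 3, Igfbp1 (247), Ppargc1a (4.89) and Stat2 (2.05) in sample 4, and Hhex (15.2) and Creb3l3 (81.7) in sample 5.

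In CDAHFD sham they were Nr1d1 in sample 1 (9.01 FPKM), Ppara (11.7), Rnf125 (8.87) and Apol9a (6.55) in sample 2, and Bag4 in sample 4 (3.81). In CDAHFD RIC they were Slc25a32 (10.8) and Fitm2 (20.4) in sample 1, Pcnx4 (1.63) and Angptl8 (13.9) in sample 2, Acot3 in sample 3 (25.4), and Acta2 (2.77) and Hspa1b (2.61) in sample 4.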

How the results depend on the processing

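Scale and filter moved both the counts and the balance of directions. Of the 108 named genes, each tested in 23 to 31 alternatives, no called one changed sign, and 59 of the 100 called ones kept their call in every alternative in which they were tested. With no filter on low values, 38 of the 100 called genes lost their call. For Igfbp1, Cps1, Mat1a, Por, S100a8, Jun, Cyp17a1 and Trib3 it was the only alternative that did so (adjusted p between 0.0514 and 0.0636). The interaction had 711 calls, against 386 at a mean of at least 5 FPKM, 569 with a pseudocount of 0.1, 507 with no filter and 1258 without CDAHFD sham samples 2 and 5. Leaving out 1 sample gave 440 (NC sham 2) to 1029 (CDAHFD sham 2), with 464 without CDAHFD sham 3. Rescaling to a common sum moved the median interaction of all genes from -0.03 to 0.09 and the share of positive calls from 53.4% to 81.1%. RIC on CDAHFD had 2886 calls, against 1480 at a mean of at least 5 FPKM and 2058 to 3245 without 1 sample. Its share of higher calls was 31.9%, against 50.5% with quantile normalization, 55.5% with a common sum and 55.8% after median-ratio scaling. RIC on NC had 125 calls, against 66 with a pseudocount of 5 or a square root, 48 with no filter, 59 with quantile normalization, 401 with sample weights and 13 to 178 without 1 sample. Its share of higher calls was 27.2%, against 62.2% with median-ratio scaling, 64.4% with quantile normalization and 14.8% with a common sum. The Pearson r of 0.15 was 0.126 with a pseudocount of 5, 0.0971 with a square root, 0.109 with sample weights, 0.176 without CDAHFD sham samples 2 and 5, and 0.1 to 0.166 without 1 sample. With the replicate number as a block there were 600 interaction calls and 79 for RIC on NC, but the deviations of same-numbered samples correlated over 0.1 in only 6 of 27 pairs (-0.174 to 0.176), and 5 of 19 samples were most like their own number. The cause of these shifts was not tested. Depth could not be tied to single values, so genes near 1 FPKM are the least certain.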

Other observations

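The genes named here were chosen after their values were seen, so they speak for no pathway as a whole. Several genes of branched-chain amino acid breakdown had positive interactions, as Ppm1k did. They were Mut (0.69, adjusted p = 0.0367 in limma), Hibch (0.61, 0.00522), Dbt (0.56, 0.0177), Pcca (0.56, 0.0367), Aldh6a1 (0.55, 0.0104), Mccc2 (0.52, 0.0352) and Pccb (0.46, 0.017). Dbt encodes a subunit of the branched-chain dehydrogenase that Ppm1k activates, and Pcca and Pccb encode the propionyl-CoA carboxylase further down the pathway. Beside Pdk4, Pdp2, the phosphatase that reverses its action on pyruvate dehydrogenase, had 1.09 (0.000931), and Acsl1, which activates long-chain fatty acids, 1.44 (0.0177).

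Several genes of the cytoskeleton had negative interactions. They were the actin Actg1 (-0.83, adjusted p = 0.017 in limma), the tropomyosins Tpm1 (-0.71, 0.017) and Tpm4 (-0.61, 0.0472), the myosin light chain Myl9 (-1.27, 0.00495), the tubulins Tubb6 (-1.08, 0.00186) and Tuba8 (-1.34, 0.0445), the keratin Krt8 (-0.72, 0.0415) and the lamin Lmna (-0.66, 0.017). Actg1 was at 113 ± 24.2 FPKM in CDAHFD sham and 65.3 ± 11.4 in CDAHFD RIC, against 7.58 ± 0.813 and 7.93 ± 0.8 on NC (mean ± SD). The 14 stellate markers, which include the cytoskeleton genes Acta2 and Tagln, summed to 192 to 356 FPKM in CDAHFD sham and 147 to 231 in CDAHFD RIC, and the part of stellate cells in these values was not tested.

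The clone gene AC147560.1 had the largest difference between RIC and sham samples on CDAHFD. It was at most at 0.168 FPKM in CDAHFD sham and 33.3 to 44.2 in CDAHFD RIC. On NC it was at 23.9, 0.139, 0.194, 22.8 and 25.2 after sham and 20.5, 24.6, 19.2, 20.7 and 0.185 after RIC, so that samples of the same group were either high or near 0. With such a split the difference cannot be told apart from one in genotype between the samples, and the strain is not stated. On CDAHFD the split coincided with RIC against sham, so a difference in genotype there could not be told apart from RIC. Its part in the results of other genes was not tested.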
